A study of Homo sapiens with 2 samples.

Results

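The HOX genes of the HOXA, HOXB, HOXC and HOXD clusters were examined for open chromatin in HepG2 cells. The members were 38 named genes, and every row of the 3 deposited peak lists whose nearest gene was one of them was taken. This gave 4 peaks among 56159. They named 4 genes, HOXA4, HOXB8, HOXD8 and HOXD13, and left 34 of the 38 without a listed peak. None of the 4 peaks was in HOMER's promoter class.

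HepG2 is an established human liver cancer cell line. Control cells carried a lentiviral scrambled small hairpin RNA, and NR2E3-depleted cells carried a lentiviral hairpin that targets NR2E3, a nuclear receptor (the KO II cells of the study). The protein was thus lowered by RNA interference and the gene was not removed. The peak lists measure no transcript or protein, so the depletion itself was not checked here. FAIRE-seq, which recovers DNA free of crosslinked protein and so enriches for open chromatin, gave 1 library per group. No difference between the libraries below therefore has a replicate check, and no test between the conditions was possible. Intervals are 95% intervals for counting error only.

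HOX genes encode homeodomain transcription factors that give body segments their identity along the head-to-tail axis. They lie in 4 compact clusters, in which the order of the genes follows the order of the segments where they act. In differentiated cells clusters or parts of them are commonly held silent by Polycomb proteins, which act on CpG-rich DNA, whereas Trithorax proteins maintain the active state.

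Every listed score below 10 was a whole multiple of the score of 1 tag (an aligned read) in its list, 0.407 in the common and control-specific lists and 0.507 in the depleted-specific list, within 0.0051 score units. Scores are therefore given here mainly as tag numbers. The lists hold called peaks only, so a weak signal under the calling threshold cannot be told apart from none. Common peaks carry tag numbers on the control scale. The median peak held 16 tags in the common list, 14 in the control-specific list and 12 in the depleted-specific list. If scores are per 10 M tags, the HOMER default, the control library held 24.6 M tags and the depleted library 19.7 M. Most liver marker genes had a promoter peak. Of 11 liver genes, 8 had a common promoter peak, among them HNF4A, FOXA2 and APOB, while ALB, AFP and TTR had none. No promoter peak was listed for any of the 4 blood cell, 4 fibroblast, 2 muscle and 2 neuron markers. Over all protein-coding genes, 14.6% had a common promoter peak and 28.3% had one in any list. With 2 or 4 markers per cell type, a count of 0 is therefore little evidence of a difference from all genes.

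The sequences that carry the result are those of the 4 peaks that name a HOX gene, and of the 2 depleted-specific peaks that lie nearest to the start of another HOX gene, HOXC6 and HOXD1. The first 300 bases of each are printed from hg38, plus strand. Capitals mark matches, on either strand, to GGGCGG (Sp1), CCAAT (NFY), CACCC (KLF) and AGGGGGC or AGGTGGC (core letters of the CTCF motif). Matches of different motifs can overlap, and they are descriptions of the letters only.
HOXA4, depleted-specific, chr7:27133716-27134015: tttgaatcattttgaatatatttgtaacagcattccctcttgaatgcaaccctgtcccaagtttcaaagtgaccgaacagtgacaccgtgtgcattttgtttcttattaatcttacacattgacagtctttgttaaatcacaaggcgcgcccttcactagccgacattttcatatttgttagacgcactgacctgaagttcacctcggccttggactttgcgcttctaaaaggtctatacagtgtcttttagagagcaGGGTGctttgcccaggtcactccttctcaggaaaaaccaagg
HOXB8, common, chr17:48618544-48618843: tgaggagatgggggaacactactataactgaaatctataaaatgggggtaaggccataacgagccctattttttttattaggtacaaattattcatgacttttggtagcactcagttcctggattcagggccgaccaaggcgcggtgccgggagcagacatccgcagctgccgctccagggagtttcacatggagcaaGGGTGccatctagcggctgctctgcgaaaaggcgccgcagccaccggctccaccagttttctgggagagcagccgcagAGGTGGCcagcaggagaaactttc
HOXC6 (nearest gene listed as HOXC-AS2), depleted-specific, chr12:53994253-53994552: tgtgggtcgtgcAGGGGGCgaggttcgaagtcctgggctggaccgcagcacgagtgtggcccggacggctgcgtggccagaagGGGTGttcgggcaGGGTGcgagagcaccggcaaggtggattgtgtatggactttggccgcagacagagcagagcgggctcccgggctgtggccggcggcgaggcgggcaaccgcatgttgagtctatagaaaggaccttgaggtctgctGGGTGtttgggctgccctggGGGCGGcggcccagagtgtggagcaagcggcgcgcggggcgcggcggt
HOXD13, control-specific, chr2:176088354-176088653: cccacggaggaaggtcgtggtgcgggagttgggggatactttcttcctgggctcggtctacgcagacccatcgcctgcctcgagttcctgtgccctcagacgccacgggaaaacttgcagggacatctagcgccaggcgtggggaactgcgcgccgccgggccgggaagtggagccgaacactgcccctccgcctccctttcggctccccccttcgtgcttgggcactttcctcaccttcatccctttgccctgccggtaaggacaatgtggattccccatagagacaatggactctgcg
HOXD8, depleted-specific, chr2:176127090-176127389: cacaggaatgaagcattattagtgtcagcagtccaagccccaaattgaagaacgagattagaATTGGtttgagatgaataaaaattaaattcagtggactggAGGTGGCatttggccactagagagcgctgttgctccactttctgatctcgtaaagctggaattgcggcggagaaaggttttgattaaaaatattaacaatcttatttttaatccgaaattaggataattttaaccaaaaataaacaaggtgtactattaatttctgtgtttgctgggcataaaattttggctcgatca
HOXD1 (nearest gene listed as HAGLR), depleted-specific, chr2:176186883-176187182: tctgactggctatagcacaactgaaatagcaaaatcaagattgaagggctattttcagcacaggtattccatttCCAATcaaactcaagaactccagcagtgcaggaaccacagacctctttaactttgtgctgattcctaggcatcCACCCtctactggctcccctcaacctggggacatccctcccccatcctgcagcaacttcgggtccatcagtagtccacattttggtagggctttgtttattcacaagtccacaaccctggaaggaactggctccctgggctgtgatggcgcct

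The first question was whether HOX promoters were listed as open in either library. By HOMER's promoter class they were not. By GENCODE starts, a depleted-specific peak lay -541 bp from a HOXC6 start, but HOMER classed it as a transcription termination site. A promoter-class peak, as HOMER assigned it, was found for 0 of 38 HOX genes in the common list, 0 of 38 in the control-specific list and 0 of 38 in the depleted-specific list. A count of 0 of 38 allows a share of up to 7.89%, if the genes are taken as independent. Over all 20020 protein-coding genes, a promoter peak was listed for 14.6% in the common list, 3.69% in the control-specific list, 11.8% in the depleted-specific list and 28.3% in any list. Only the shares for the common list, the depleted-specific list and any list lay above the limit, so for the control-specific list a difference was not detectable at this number of genes.

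Promoter peaks were more common among the other genes of chromosomes 17 and 2 than a count of 0 allows for HOXB and HOXD. A promoter peak was listed for 23.1% of the other 919 protein-coding genes on chromosome 7 (HOXA) and 34.4% of 1176 on chromosome 17 (HOXB). It was listed for 27.0% of 1029 on chromosome 12 (HOXC) and 43.1% of 1238 on chromosome 2 (HOXD). A count of 0 allows up to 30% of the 10 genes of HOXA and of HOXB, and up to 33.3% of the 9 genes of HOXC and of HOXD. These limits take the genes of a cluster as independent, which neighbouring genes may not be, so they may be too low. For HOXA and HOXC taken alone, a difference from their chromosomes was therefore not detectable. Genes beside the clusters had such peaks as well. Of 18 protein-coding genes that start within 250 kb of a cluster, 12 had a promoter peak (66.7%, 41.0% to 86.7%). It was common for 4, control-specific for 1 and depleted-specific for 7. SKAP2, beside HOXA and coding for an adaptor protein, had a depleted-specific promoter peak of 20 tags. On both sides of HOXD, LNPK and MTX2, which code for an endoplasmic reticulum protein and a mitochondrial outer membrane protein, had depleted-specific promoter peaks of 14 and 16 tags. ATP5MC1, a subunit of the ATP synthase beside HOXB, had a common promoter peak of 25 tags. EVX1 and EVX2, the homeobox genes next to HOXA13 and HOXD13, had no promoter peak. These flanking genes were chosen after the peak lists had been seen.

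**Figure D1:**
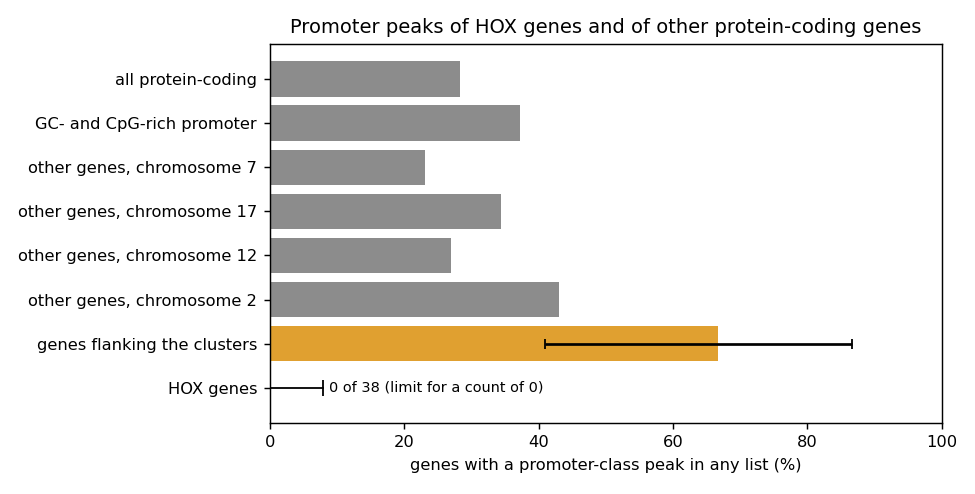
Share of genes with a promoter-class peak in any list (%), for all protein-coding genes, those with a GC- and CpG-rich promoter, the other genes of each HOX chromosome, genes that start within 250 kb of a cluster, and HOX genes. The line on the orange bar is the exact 95% interval, and the line for the HOX genes ends at 7.89%, the limit a count of 0 of 38 allows.

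HOX promoters were less GC-rich than the average promoter and had a similar CpG content for their base composition. In the window from 250 bp before to 50 bp after the GENCODE start, the median GC content was 55.3% for the 38 HOX genes (42.7% in HOXC6 to 76.3% in HOXA13) and 63.7% for all protein-coding genes. The ratio of observed to expected CpG had a median of 0.828 for HOX genes and 0.775 for all. With at least 55% GC and a ratio of at least 0.6, 18 HOX promoters (47.4%) and 62.0% of all promoters counted as GC- and CpG-rich. Among all such promoters 37.3% had a promoter peak in any list, against 0 of the 18 HOX genes, which allows up to 16.7%. The Sp1 letters GGGCGG stood in 17 of 38 HOX promoters (44.7%, 28.6% to 61.7%) and in 61.3% of all. The NFY letters CCAAT stood in 28 of 38 (73.7%, 56.9% to 86.6%) and in 36.1% of all. The KLF letters CACCC stood in 22 of 38 (57.9%, 40.8% to 73.7%) and in 63.7% of all. Of the 3 motifs, CCAAT alone had an interval that did not include the share over all promoters and lay above it, and that of GGGCGG ended just above the share over all. These intervals and the limit of 16.7% take the HOX promoters as independent. Promoters of neighbouring, related genes may not be, so the intervals may be too narrow. The motif shares were not matched for GC content.

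The second question was how many HOX genes were named by a peak of any class. The common list named 1 of 38 HOX genes (2.63%) against 26.9% of all protein-coding genes. The control-specific list named 1 of 38 (2.63%) against 21.2%, and the depleted-specific list named 2 of 38 (5.26%) against 36.4%. In any list it was 4 of 38 (10.5%) against 51.9%. A gene in a dense cluster is the nearest gene over a short stretch only, so these shares depend on spacing. HOX genes numbered 49.9 per Mb in HOXB and 76.8 to 100.3 per Mb in the other clusters, while the 4 chromosomes held 5.18 to 14.3 protein-coding genes per Mb. Of the 4 peaks, 2 were depleted-specific and 1 was control-specific, a ratio of 2.0 with an interval of 0.104 to 118. The ratio over all peaks, 1.57, lies within that interval, so no difference of the HOX genes from the whole was detectable.

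Counted by length, no shortage of peaks was detectable over the 4 clusters together, within a wide interval. Between the outer ends of the members, 515 kb in all, 11 peaks were listed, whatever gene they named (21.3 per Mb, Poisson interval 10.7 to 38.2). At the rate of the rest of each chromosome the same lengths would hold 12.3. The clusters differed in this respect. HOXA held 3 peaks in 99.7 kb, where the rate of chromosome 7 gives 0.711. HOXB held 3 in 200.2 kb, where the rate of chromosome 17 gives 7.37. HOXC held 1 in 117 kb against 1.03, and HOXD held 4 in 98.2 kb against 3.17. The HOXD count, and with it the 11, includes a pair of rows near HOXD1 that lie 1 bp apart and amount to a single site. Chromosomes 17 and 2 are dense in peaks, with 36.8 and 32.3 per Mb outside the clusters, and chromosomes 7 and 12 are not, with 7.13 and 8.79. Thus the HOXB count lay below and the HOXA count above the rate of its chromosome, each on 3 peaks. The interval for HOXA, 6.20 to 87.9 per Mb, included the 7.13 of chromosome 7, and that for HOXB, 3.09 to 43.8, included the 36.8 of chromosome 17.

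**Figure D2:**
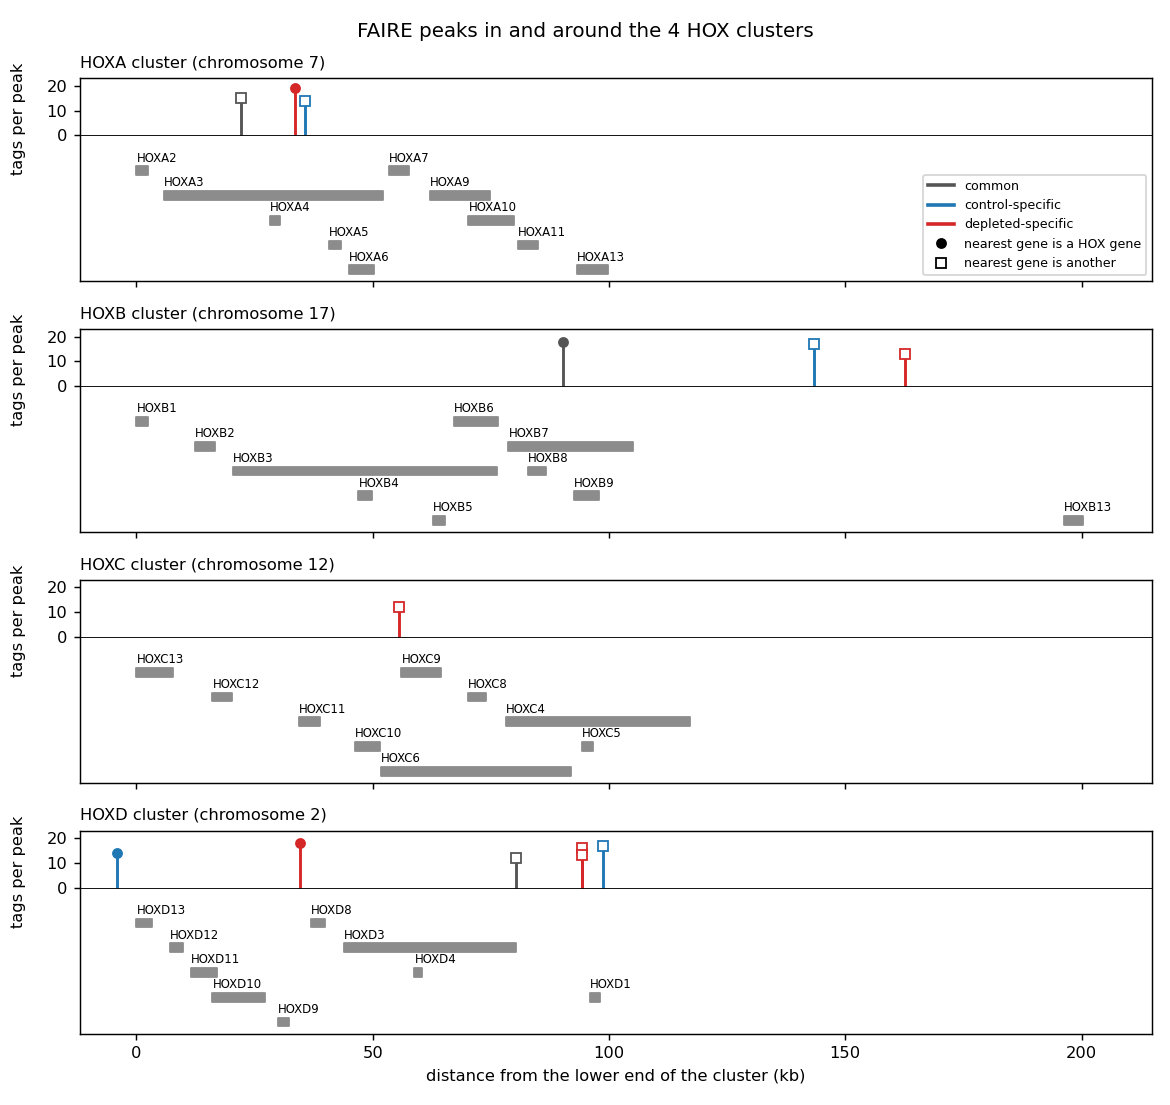
Map of the 4 clusters, with distance from the lower end of each cluster in kb on the horizontal axis, HOX genes as grey bars and each listed peak as a line whose height is its number of tags. Colours give the list, filled circles mark the 4 peaks whose nearest gene is a HOX gene and open squares the other 9. The peaks lie between genes or inside long gene models, none in HOMER's promoter class, the HOXC peak lies 541 bp from a HOXC6 start, and 2 depleted-specific rows near HOXD1 coincide.

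With 10 kb added on each side, 13 peaks were found in and around the clusters. They comprised 3 common, 4 control-specific and 6 depleted-specific peaks, and 9 of them named a gene that was no member. The tags of the 13 peaks ran from 12 to 19, with wide Poisson intervals (6.20 to 21.0 at 12 tags and 11.4 to 29.7 at 19). Single peaks of this height were thus measured with low precision, and the absence of one from a library is not a firm difference.

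**Figure D3:**
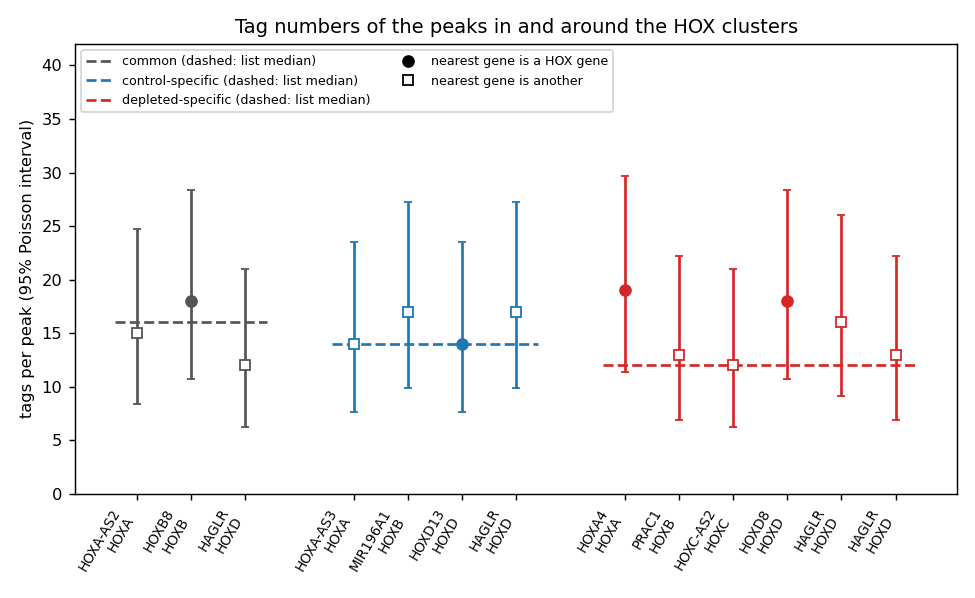
Tags per peak with 95% Poisson intervals for the 13 peaks in and around the clusters, by list, with the median of each list as a dashed line. Filled circles are peaks whose nearest gene is a HOX gene and open squares the others. The depleted-specific peaks at HOXA4 (19 tags) and HOXD8 (18 tags) lie furthest above the median of their list, 12 tags.

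In HOXA, all 3 peaks lay around HOXA3 and HOXA4. HOXA4, which patterns the neck and upper trunk, was named by a depleted-specific peak of 19 tags (score 9.63), at percentile 96.7 of the scores in its list. The peak, at 27133716 to 27134016 on chromosome 7 (hg38), was centred -3109 bp from the HOXA4 start, upstream of the gene and between HOXA4 and HOXA5. HOMER classed it as intergenic, whereas in GENCODE it lies within the spans of long HOXA3 transcripts and of the antisense RNAs HOXA-AS2 and HOXA-AS3. A control-specific peak of 14 tags was centred 2234 bp away, from 27135950 to 27136250, and named HOXA-AS3. Both libraries thus had a peak in the interval between HOXA4 and HOXA5, at positions that did not overlap. The common peak of HOXA, 15 tags, named HOXA-AS2 and was classed as a non-coding exon, -2957 bp from the nearest HOXA3 start, a gene needed for thymus and parathyroid development. No peak lay in the stretch from HOXA5 to HOXA13. The members with no listed peak were HOXA2, HOXA3, HOXA5, HOXA6, HOXA7, HOXA9, HOXA10, HOXA11 and HOXA13.

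In HOXB, the one member named was HOXB8, known for its part in blood progenitors. Its peak, common to both libraries, held 18 tags (score 7.32) at percentile 64.4 of the common list. It ran from 48618544 to 48618844 on chromosome 17, -3402 bp from the HOXB8 start, between HOXB8 and HOXB9 and within the long HOXB7 gene model of GENCODE. It is the peak printed above with AGGTGGC near its end. The other 2 peaks lay in the gap between HOXB9 and HOXB13. A control-specific peak of 17 tags there named MIR196A1, and a depleted-specific peak of 13 tags named PRAC1, at 31279 bp. The latter overlapped RPL9P28, a processed pseudogene of a ribosomal protein, so the placement of its tags is uncertain. No peak was listed between HOXB1 and the start of the HOXB8 gene. The members without one were HOXB1, HOXB2, HOXB3, HOXB4, HOXB5, HOXB6, HOXB7, HOXB9 and HOXB13.

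HOXC held a single peak, which was depleted-specific and had 12 tags (score 6.08), at percentile 37.2 of its list. It ran from 53994253 to 53994553 on chromosome 12. HOMER gave it to HOXC-AS2 and classed it as a transcription termination site. In GENCODE its centre lay -541 bp from a protein-coding start of HOXC6 and -1106 bp from one of HOXC9, both of which act in the chest region of the trunk. This was the closest approach of any peak to a HOX start. It was also the most GC-rich of the 13 peaks, 69.1% with 28 CpG dinucleotides, and held 1 Sp1, 3 KLF and 1 CTCF core match. The control library had no peak in the HOXC cluster, the nearest lying at least 113432 bp from any HOXC start. All 9 HOXC genes, HOXC4, HOXC5, HOXC6, HOXC8, HOXC9, HOXC10, HOXC11, HOXC12 and HOXC13, were named by no peak.

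HOXD had the most peaks, 6 with the 10 kb margins, of which 2 named a member. HOXD8, expressed along the trunk, was named by a depleted-specific peak of 18 tags (score 9.13), at percentile 95.1 of its list, from 176127090 to 176127390 on chromosome 2 and -2465 bp from its start. This peak lies between HOXD9 and HOXD8, and its nearest neighbour in any list was 38736 bp away. HOXD13, which shapes the digits, was named by a control-specific peak of 14 tags (score 5.69), at percentile 40.9 of its list, from 176088354 to 176088654 and -4217 bp from its start, outside the cluster proper and between HOXD13 and EVX2. The peaks at the 2 genes thus differed in composition, with 36.2% GC at HOXD8 and 63.5% at HOXD13.

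Around HOXD1, at the other end of HOXD, both libraries had specific peaks but no common one. Upstream lay 2 depleted-specific rows that differ by 1 bp, of 16 and 13 tags, centred -1635 and -1634 bp from the HOXD1 start in an intron of the antisense RNA HAGLR. They overlap over all but 1 base and amount to a single site. Downstream of the gene lay a control-specific peak of 17 tags from 176191375 to 176191675, 2857 bp from the start. The common peak of HOXD, with 12 tags at percentile 1.58 of its list, also named HAGLR and lay at the end of HOXD3. No peak was listed for HOXD1, HOXD3, HOXD4, HOXD9, HOXD10, HOXD11 or HOXD12 by name.

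The 13 peaks had a median GC content of 48.2%, against 43.9% for all peaks outside promoters and 62.1% for promoter peaks. A GGGCGG match was found in 2 of them (15.4%), against 5.94% of peaks outside promoters and 62.3% of promoter peaks. CCAAT stood in 5 (38.5% against 36.5% and 44.7%) and CACCC in 7 (53.8% against 42.8% and 59.4%). With the 2 coinciding rows near HOXD1 counted once, CCAAT stood in 4 of 12 (33.3%) and CACCC in 6 of 12 (50%). A CTCF core match was found in 3 of the 13, those at HOXB8, HOXC6 and HOXD8 (23.1% against 9.89% and 23.9%). The CTCF letters were searched after the peaks had been seen, and with 13 peaks of low height these shares are descriptions only.

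The third comparison used the distance from each HOX gene to the nearest peak of each library, taken from any of its GENCODE protein-coding starts. In the control library it ran from 2857 bp (HOXD1) to 207651 bp (HOXC5), with a median of 28905 bp. In the NR2E3-depleted library it ran from 541 bp (HOXC6) to 87683 bp (HOXB1), with a median of 20617 bp. For all 19663 protein-coding genes the medians were 26676 bp and 10315 bp. A start within 1000 bp of a peak was found for 0 of 38 HOX genes in the control library (25.4% of all genes) and for 1 of 38, HOXC6, in the NR2E3-depleted library (35.3% of all genes). Set against the other genes of its own chromosome, HOXA was the exception in the control library, with a median of 20222 bp against 52341 bp. The medians there were 26684 bp for HOXB against 6700 bp, 165225 bp for HOXC against 35279 bp, and 18776 bp for HOXD against 1583 bp. In the NR2E3-depleted library the medians were 21339 bp for HOXA against 23230 bp, 26684 bp for HOXB against 2494 bp, 21275 bp for HOXC against 12370 bp, and 10462 bp for HOXD against 646 bp. Thus HOXB, HOXC and HOXD lay further from peaks than the other genes of their chromosomes in both libraries, and HOXA did not. Within 10 kb of a peak were 9 HOX genes in the control library (23.7%, against 38.1% of all genes) and 13 in the NR2E3-depleted library (34.2%, against 49.6%).

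The direction differed by cluster. Of 38 HOX genes, 15 were closer to a peak of the NR2E3-depleted library, 11 were closer to one of the control library and 12 had the same common peak nearest in both. Over all genes the shares were 49.1%, 16.5% and 34.3%. All 9 HOXC genes were closer in the NR2E3-depleted library, with medians of 21275 bp and 165225 bp in the control library, and all 9 values rest on the single depleted-specific peak near HOXC6. In HOXA 7 of 10 genes were closer in the control library, and the nearest peak of the NR2E3-depleted library was in each case the one upstream of HOXA4, 2234 bp further away. In HOXB 8 of 10 had the same peak nearest. HOXD was mixed, with 4 closer in the NR2E3-depleted library, HOXD1, HOXD8, HOXD9 and HOXD10, and 3 closer in the control library, HOXD11, HOXD12 and HOXD13. Genes of 1 cluster share their nearest peaks and are not independent.

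**Figure D4:**
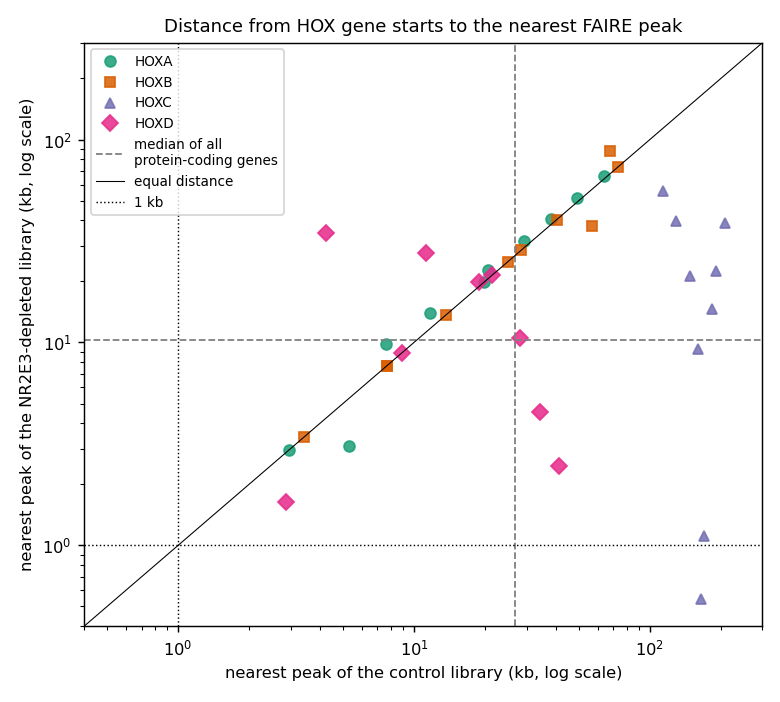
Distance in kb (log scales) from each HOX gene to the nearest peak of the control library (horizontal) and of the NR2E3-depleted library (vertical), by cluster. The HOXC genes lie to the right, far from any control peak, most HOXA and HOXB genes lie on or near the line of equal distance, and HOXC6 alone is within 1000 bp (541 bp in the NR2E3-depleted library). Dashed lines are the medians of all protein-coding genes.

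Some genes that act with or on HOX proteins had at least 1 promoter peak, at shares on both sides of the 28.3% of all protein-coding genes. By list, the shares of all protein-coding genes were 14.6% common, 3.69% control-specific and 11.8% depleted-specific. Whether any of the gene groups below differed from these shares was not tested. Of 9 cofactors, which bind DNA with HOX proteins, 2 had a promoter peak (22.2%). PKNOX1 had a common promoter peak and MEIS1 a control-specific one of 13 tags. Of 28 Polycomb genes, 10 had at least 1 promoter peak (35.7%), and it was common for 5 of them. Among those reported here it was control-specific for EZH1 (19 tags), a histone methyltransferase, and for PCGF1 (12 tags), part of a complex that modifies histones. It was depleted-specific for MTF2 (12 tags) and CBX7 (12 tags). Of 11 Trithorax genes, 6 had one (54.5%), and it was common for 3 of them. It was control-specific for RBBP5 (15 tags) and depleted-specific for KMT2A (16 tags), a methyltransferase known to maintain HOX expression, and for ASH2L (17 tags). Among 10 upstream regulators 2 had one (20%), RARA and RARG, receptors for the HOX-inducing signal retinoic acid, common at RARA and depleted-specific at RARG (11 tags). Of 34 further genes in or beside the clusters, 4 had one (11.8%), CALCOCO1, SKAP2, LNPK and MTX2, all of them outside the clusters. None of the listed non-coding RNAs of the clusters, HOTAIR, HOTTIP, HOTAIRM1 and HAGLR among them, had a promoter peak in any list. The share over all non-coding genes was not computed. Many of the 34 genes are non-coding RNAs, so the 28.3% of protein-coding genes is no background for them.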

How the data were processed

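The 2 libraries were processed by the authors, and the tool versions are those of the submitters' processing notes. After Trimmomatic 0.39 had removed adapters and poor bases, alignment was to hg38 (Bowtie2 2.4.5), and HOMER was used for peak calling and annotation. The deposited lists hold common, control-specific and depleted-specific peaks, each with a peak score (tag count scaled to library size by the authors), a genomic class, and positions and TSS distances in bp. The rule that separated common from specific peaks is not given in the sources used here. All 56159 peaks were 300 bp wide (end minus start).

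Tag numbers are scores divided by the score of 1 tag per list. Gene spans, starts and sequences came from hg38 with GENCODE release 44, in which 97.2% of the protein-coding names in the lists were found. Cluster ends are the outer ends of the members. Shares carry exact Clopper-Pearson intervals, tag numbers and densities exact Poisson intervals, and ratios exact binomial intervals. They cover counting error and treat peaks and genes as independent. A count of 0 was given the limit of 3 counts. With 1 library per group no p-value was computed.

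The rule for named genes took the HOX genes with a promoter peak, the 3 with the most peaks, the 3 highest-scoring HOX peaks of each list, the HOX genes without a peak, and genes of the further lists with a specific promoter peak, of which 1 is not reported here. All other genes, the 9 cluster peaks that name another gene, the GENCODE distances and the CTCF letters were added after the values had been seen. The HOX genes and further lists were chosen with earlier results of these data known. Alternatives covered the score, tag number, clusters, distance, shared and neighbouring peaks, and the promoter definition. The calculations were tested on simulated data. Scripts ran under pandas 2.3.3, numpy 2.4.6, pysam 0.24.0, scipy 1.17.1 and matplotlib 3.10.9 (Python 3.11.15).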

Additional observations from a re-analysis of the deposited data

How the results depend on the processing

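The count of 0 HOX genes with a promoter peak did not change in the common and control-specific lists under any of the alternatives run. Settings that only remove, merge or relabel peaks could not raise a count of 0, so only the other promoter definitions could change it. In the depleted-specific list it was 1 gene, HOXD8, with promoters taken as peaks within 3000 bp of the TSS, and 1 gene, HOXC6, with GENCODE starts within 1000 bp and all peaks of the clusters, a definition chosen after seeing the data. The cause in both cases is the wider or different definition of a promoter. Under the other settings, 35 values, and 7 more from those chosen after seeing the data, stayed within the interval or at the count given. The intervals were wide, 0.104 to 118 for the ratio and -97.5 to 84.2 points for the difference in promoter share. Staying within them, or at a count of 0 that a filter cannot raise, is therefore little evidence of stability. With a score of 6 or more, with 15 tags or more, or without HOXB and HOXD, no control-specific peak was left, so the ratio and the difference in promoter share (0 points, from 0 of 2 and 0 of 1 peaks) had no value. Counting all peaks within 10 kb of the clusters gave a ratio of 1.5 (0.356 to 7.23), or 1.25 (0.269 to 6.30) with overlapping rows merged, both chosen after seeing the data. The Sp1 motif share of HOX promoter peaks and its alternatives could not be computed, as there were no such peaks. There was no replicate to leave out. No paired analysis was possible because there was only 1 library on each side of the comparison. At 12 to 19 tags, whether 1 peak is listed in a library or not is uncertain.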

Other observations

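The 2 rows that coincide near HOXD1 were not the only ones of their kind. Within the depleted-specific list, 102 neighbouring rows of 25555 peaks had starts no more than 300 bp apart, and 4 of these were within 10 bp. In the control-specific list there were 92 and 2, and in the common list 11 and 0.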
